A study of Rattus norvegicus with 20 samples.

Results

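Cells of the renal medulla stay alive in salt and urea concentrations that would kill other cells, and the genes described here do much of that work. They are *Nfat5*, *Akr1b1*, *Slc6a12*, *Slc6a6*, *Slc5a3*, *Slc14a1* and *Slc14a2*, chosen by gene name in either deposited table and followed by gene identifier in the other. Of these 7 genes, 6 were found among the 32907 genes listed in the tables together. *Slc14a2* is split into 2 gene identifiers, so the 6 genes have 7 entries, and all 7 passed the filter on low values in both tables. *Slc5a3* matched no entry by name and was not analysed here.

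The samples were whole kidneys of wild-type male Wistar rats aged 10 to 12 weeks, 1 library per sample. A subcutaneous osmotic minipump had delivered drug or its vehicle for 28 days. Cyclosporine A (n = 4) was set against its saline vehicle (n = 4). Tacrolimus, aimed at a trough of 3.5 ng per ml (n = 6), was set against a carrier of 75% PEG500 and 25% DMSO (n = 6). Both drugs inhibit the phosphatase calcineurin, through different immunophilins, and the series sets the kidney effects of one beside those of the other. Because the organ was not divided, a lower value may mean fewer medullary cells in the sample or less RNA per cell, and these cannot be told apart.

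In the hypertonic medulla, cells balance extracellular salt by storing small organic solutes that do not disturb proteins: sorbitol, betaine, taurine and myo-inositol. NFAT5, also called TonEBP, is the transcription factor that switches on the genes for making or importing these solutes when tonicity rises. It shares its DNA-binding fold with the calcineurin-regulated NFAT proteins but lacks the region through which calcineurin binds them. The urea transporters encoded by *Slc14a1* and *Slc14a2* recycle urea within the medulla and so help to build the gradient that concentrates urine.

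The tables give FPKM, the fragments of a gene divided by its length and by library depth. Libraries held 30468744 to 39358485 assigned fragments. Mitochondrial genes took 49.7% to 68.6% of fragments in saline kidneys and 80.2% to 90.8% in cyclosporine A kidneys, against 10.5% to 15.9% in the tacrolimus table. The deposited cyclosporine A values are relative to all fragments, so nuclear genes are lower there whenever the mitochondrial share is higher. They were therefore rescaled with median-of-ratios factors, which equalise the median nuclear gene and which the tacrolimus table already carries. Levels are not on one scale across the 2 tables, and a drug was compared only with the vehicle of its own table.

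None of the 7 entries passed an adjusted p of 0.05 (limma, Benjamini-Hochberg over all genes tested) with cyclosporine A on rescaled FPKM, and none did with tacrolimus. Across all genes tested the share that passed was 0.609% for cyclosporine A (82 of 13454) and 0.303% for tacrolimus (47 of 15493). At an unadjusted p under 0.05, 0 of 7 entries passed with cyclosporine A against 16.2% of all genes, and 1 of 7 with tacrolimus against 8.58%. The voom fit to recovered fragments called 0 of 7 with each drug. The median log2 change of the 7 entries was 0.21 with cyclosporine A and 0.09 with tacrolimus, where the median of all genes was -0.00 in each. In no entry were the libraries of drug and vehicle fully apart, which was so for 10.9% of all genes in the cyclosporine A comparison and 0.975% in the tacrolimus comparison. A list this short, chosen with earlier results known, is described by these counts and was given no test of its own.

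The result with cyclosporine A depended on the scaling. On the values as deposited, 6 of the 7 entries were called lower, the exception being the 5′ entry of *Slc14a2*, and 80.9% of all genes were called lower too. The median entry changed by -0.81 on the log2 scale and the median gene by -0.89. Drug and vehicle libraries were fully apart for *Akr1b1* and *Slc6a6* alone, a separation in that direction that 67.9% of all genes showed. The mitochondrial share was higher in all 4 cyclosporine A libraries than in any saline library, and its part in these values beyond the scaling was not tested.

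**Figure D1:**
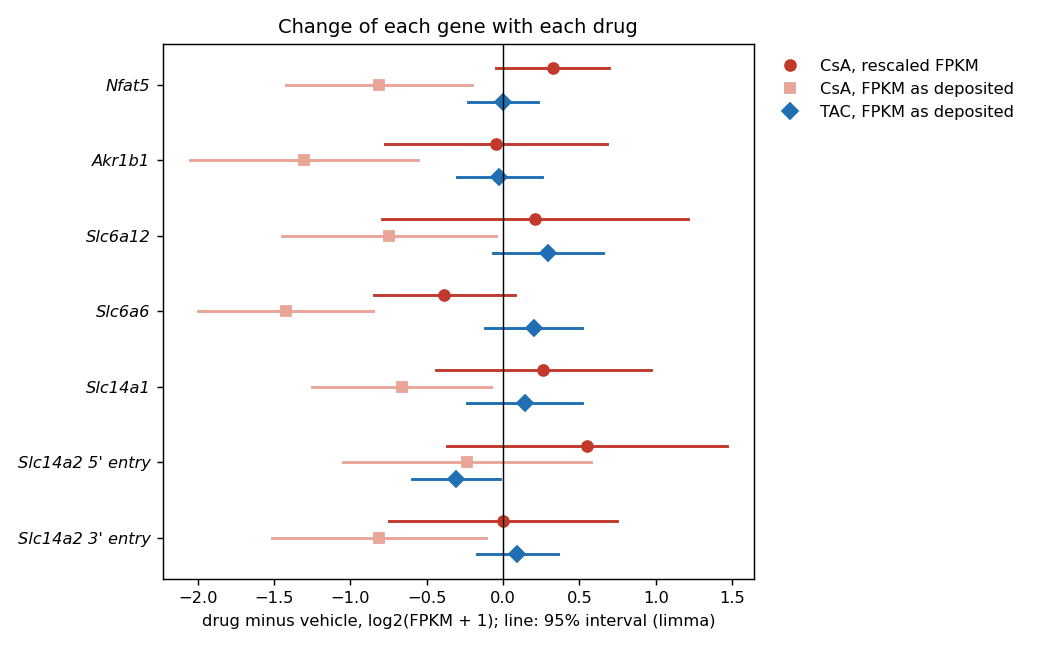
Change of each entry with drug, as the difference of log2(FPKM + 1) from the vehicle (x axis), with 95% intervals from limma as lines. Red circles are cyclosporine A on rescaled FPKM, pale squares the same libraries on FPKM as deposited, and blue diamonds tacrolimus. All red intervals include 0, as do the blue ones except that of the *Slc14a2* 5′ entry, while the pale squares lie between -0.24 and -1.42.

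*Nfat5* (ENSRNOG00000011879, chr19:38446059-38533735 in rn6, minus strand) encodes the tonicity-responsive factor itself. In saline kidneys it was measured at 6.79, 4.57, 3.83 and 5.66 rescaled FPKM. In cyclosporine A kidneys it stood at 5.93, 7.32, 5.86 and 7.71. All 4 cyclosporine A libraries lay above the saline median of 5.11, but saline replicate 1 was higher than 2 of them, so the groups overlapped. The difference on the log2 scale was 0.33 (SE 0.17, 95% interval -0.05 to 0.70, limma adjusted p = 0.373). It stayed between 0.21 and 0.44 with any 1 library left out. With FPKM as deposited the same libraries gave -0.81 (adjusted p = 0.0162), so the sign followed the scaling.

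With tacrolimus, the *Nfat5* ranges of drug and vehicle overlapped. The vehicle libraries ran from 6.68 through a median of 9.55 to 10.6 FPKM, and the tacrolimus libraries from 7.89 through 8.63 to 10.55. Tacrolimus replicate 5 stood above the other 5, which ended at 8.89. Its log2 difference from vehicle was -0.00 (SE 0.11, 95% interval -0.23 to 0.23, limma adjusted p = 0.997). The change with cyclosporine A minus that with tacrolimus was 0.33 (95% interval -0.09 to 0.74, adjusted p = 0.448).

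*Akr1b1* (ENSRNOG00000009513, chr4:61706864-61720956 in rn6) encodes aldose reductase, which makes sorbitol from glucose. It had the highest level per length of the 7 entries in all 4 groups, and its range met that of no other entry in the same group. Saline kidneys held 33.9, 12.9, 15.1 and 11.3 rescaled FPKM, and cyclosporine A kidneys 17.1, 12.7, 12.35 and 24.7. Saline replicate 1 held more than any cyclosporine A library, and the other 3 saline libraries overlapped the cyclosporine A ones. The log2 difference was -0.05 (SE 0.33, limma adjusted p = 0.965), and without saline replicate 1 it was 0.28.

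That saline library also differed in markers of another tissue. The 7 urothelial marker genes, none of them at 0 in all libraries of a group, summed to 14.8 rescaled FPKM in saline replicate 1 and to between 3.87 and 4.51 in the other 3 saline kidneys. *Psca* alone made 10.6 of that sum, where its lowest saline value was 0.896. In the cyclosporine A kidneys the sum ran from 10.7 to 20.3, with other genes in the lead: *Psca* stood at 1.10 to 3.53 there. *Upk1a*, a uroplakin of the urothelial surface, ran from 0.806 to 1.995 in saline and from 4.40 to 6.26 in cyclosporine A kidneys and was called higher (log2 difference 1.51, limma adjusted p = 0.0197). The call held in 6 of 8 cases with 1 library left out, and was lost as deposited (adjusted p = 0.0704), with the replicate block (0.0653) and with every gene above 0 tested (0.053). The 6 inner medullary and papillary markers, all detected, summed to 229.7 to 282.0 in saline and 148.8 to 300.8 in cyclosporine A. Within that sum the markers lay on both sides: *Cryab* stood at 188.8 ± 9.39 in saline and 97.6 ± 28.4 in cyclosporine A (n = 4 each, limma adjusted p = 0.0632), and *S100a6* at 55.1 ± 15.3 and 115.0 ± 36.3 (limma adjusted p = 0.1). The part of tissue composition in the *Akr1b1* values was not tested.

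With tacrolimus, *Akr1b1* ran from 59.4 through a median of 91.5 to 110.5 FPKM, around the vehicle's 72.7, 89.05 and 99.9. The lowest and the highest of the 12 libraries were both tacrolimus kidneys. On the log2 scale the difference came to -0.02 (SE 0.13, 95% interval -0.30 to 0.26, limma adjusted p = 0.983). The pseudogene *Akr1b1-ps2* and the close relative *Akr1b8* could share reads with *Akr1b1*. In the cyclosporine A table *Akr1b1-ps2* reached 0.749 and *Akr1b8* 2.61 rescaled FPKM, and in the tacrolimus table *Akr1b8* ran from 2.53 to 29.65 FPKM, so the *Akr1b1* values carry that uncertainty.

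**Figure D2:**
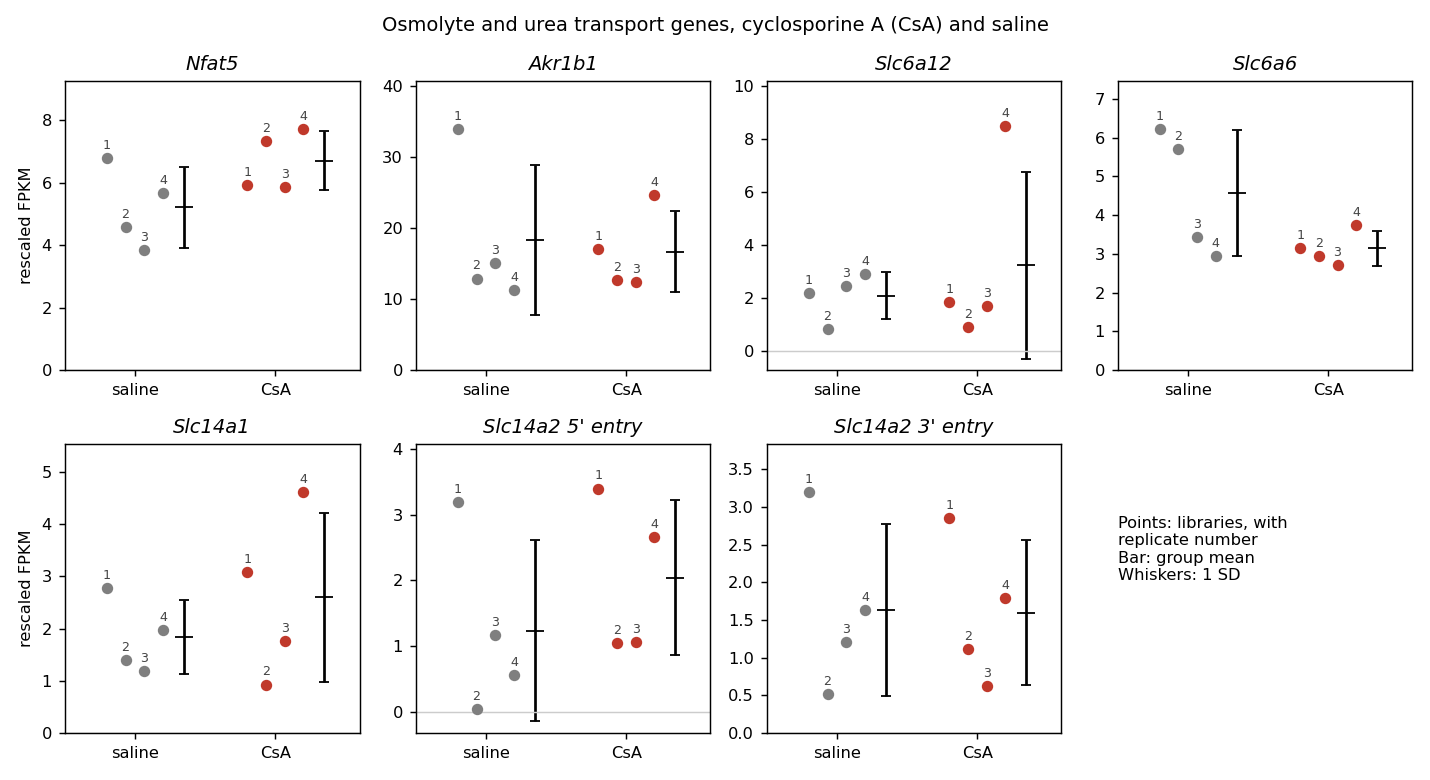
Rescaled FPKM of the 7 entries (y axis, from 0 or just below it) in each saline (grey) and cyclosporine A (red) kidney, numbered by replicate. Black bars are means and whiskers 1 SD (n = 4 per group). Drug and vehicle points overlap in all 7 panels, *Nfat5* has all its red points above the saline median of 5.11, and *Slc6a12* has a single red point at 8.50.

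*Slc6a12* (ENSRNOG00000013547, chr4:153921115-153941391 in rn6) encodes BGT1, the importer of betaine and GABA. Saline kidneys held 2.20, 0.839, 2.46 and 2.89 rescaled FPKM. Cyclosporine A replicates 1 to 3 held 1.85, 0.914 and 1.72, and replicate 4 held 8.50. One library thus set the group mean of 3.25 ± 3.53 (SD, n = 4), against 2.10 ± 0.886 in saline. The log2 difference was 0.21 (SE 0.45, limma adjusted p = 0.869), and without cyclosporine A replicate 4 it was -0.28. In that library the erythroid markers, 4 of 5 matched and all 4 detected, summed to 4340 rescaled FPKM, against 446.8 to 1603 in the other cyclosporine A kidneys and 297.1 to 778.0 in saline. The same library had the highest mitochondrial share (90.8%), the fewest nuclear fragments (2905823) and, at 4.98, the highest sum of the 5 leukocyte markers, which reached 2.23 in the other cyclosporine A kidneys. Its proximal tubule sum of 119.7 and thin limb sum of 144.7 were the lowest of the 4, while its inner medullary sum of 300.8 was the highest of all 8 libraries and its principal cell sum of 301.9 the next to highest. The part of these features in the *Slc6a12* value was not tested.

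In the tacrolimus comparison *Slc6a12* ran from 3.55 through 3.74 to 5.41 FPKM with vehicle and from 3.21 through 5.31 to 8.21 with tacrolimus. Of the 6 tacrolimus kidneys, 4 lay above the vehicle median, and both ends of the combined range were tacrolimus kidneys. On the log2 scale tacrolimus differed from vehicle by 0.29 (SE 0.17, 95% interval -0.07 to 0.66, limma adjusted p = 0.696). Spread within the group was wider with the drug, at a coefficient of variation of 34.1% against 17.6%.

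*Slc6a6* (ENSRNOG00000009019, chr4:123642210-123713464 in rn6) encodes TauT, the taurine transporter. Among the 5 genes with an entry in the RefSeq promoter table, *Slc5a3* among them, it alone had a match to TonE, the element that NFAT5 binds. The 250 bases before its annotated start are shown because they hold that match, which lies on the minus strand 161 to 151 bases upstream and is in capitals (RefSeq, GRCr8, chr4:125752252-125752501, plus strand).
Slc6a6: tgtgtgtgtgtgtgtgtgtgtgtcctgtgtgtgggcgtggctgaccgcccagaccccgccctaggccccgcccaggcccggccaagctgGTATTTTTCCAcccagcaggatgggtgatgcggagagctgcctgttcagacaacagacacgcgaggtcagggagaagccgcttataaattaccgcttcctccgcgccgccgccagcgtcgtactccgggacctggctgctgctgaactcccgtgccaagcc
The search covered both strands of 300-base windows, from 250 bases before to 50 after each start. TonE occurred in 5.98% of 33469 such windows, and its core TGGAAA, which lies inside it, in 22.7%. A match describes letters only, and *Nfat5* and *Akr1b1* were not among the windows.

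Saline kidneys held 6.22, 5.70, 3.43 and 2.94 rescaled FPKM of *Slc6a6*, and cyclosporine A kidneys 3.16, 2.96, 2.71 and 3.76. All 4 cyclosporine A libraries lay below the saline median of 4.57, and replicate 3 lay below every saline library. The log2 difference was -0.39 (SE 0.21, 95% interval -0.85 to 0.08, limma adjusted p = 0.399), between -0.54 and -0.24 with any 1 library left out. As deposited, *Slc6a6* had the largest difference of the 7 entries, -1.42 (adjusted p = 0.000664), with all cyclosporine A kidneys at 2.44 FPKM or less and all saline kidneys at 5.05 or more.

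With tacrolimus the *Slc6a6* values leaned the other way without passing the test. The vehicle ran from 22.8 through 30.5 to 35.4 FPKM and tacrolimus from 22.6 through 34.1 to 47.9, with 5 of 6 tacrolimus kidneys above the vehicle median. Their log2 difference was 0.20 (SE 0.15, limma adjusted p = 0.789). The change with cyclosporine A minus that with tacrolimus was -0.59 (95% interval -1.12 to -0.05), with an unadjusted p of 0.0327 and an adjusted p of 0.264. No entry passed that test of the difference, which 1.61% of all genes passed (216 of 13391), and 16.0% of all genes had an unadjusted p under 0.05.

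*Slc14a1* (ENSRNOG00000016753, chr18:74461055-74485139 in rn6) encodes UT-B, the urea transporter of the descending vasa recta and of red blood cells. It read 2.77, 1.40, 1.18 and 1.97 rescaled FPKM in saline and 3.09, 0.927, 1.76 and 4.62 in cyclosporine A kidneys. The cyclosporine A group held both the lowest and the highest library. The log2 difference was 0.26 (SE 0.31, limma adjusted p = 0.734) and 0.01 without cyclosporine A replicate 4, the library with the erythroid sum of 4340. The endothelial markers, 6 of 7 matched and all 6 detected, summed to 18.1 to 36.3 in saline and 12.6 to 22.6 in cyclosporine A kidneys, where *Plvap* stood at 14.2 ± 6.68 and 2.64 ± 1.20 (n = 4 each, limma adjusted p = 0.0677). *Plvap* made most of the difference between the sums, and of the 6 markers 1, *Kdr*, had a log2 change above the median of all genes. The part of blood or vessels in the *Slc14a1* values was not tested.

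Under tacrolimus *Slc14a1* ran from 3.89 through 5.97 to 8.34 FPKM, and under its vehicle from 3.60 through 5.05 to 7.37. The ranges overlapped over most of their length, with 5 of 6 tacrolimus kidneys above the vehicle median. Group means differed by 0.14 on the log2 scale (SE 0.18, 95% interval -0.24 to 0.52, limma adjusted p = 0.902). Erythroid markers summed to 662.3 to 2701 with vehicle and 589.4 to 2084 with tacrolimus.

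*Slc14a2* encodes the UT-A urea transporters of the inner medullary collecting duct and the thin descending limb. The isoform of the thin limb starts at an inner promoter, and other isoforms start at an outer one. The files split the gene into a 5′ entry (ENSRNOG00000061714, chr18:74546220-74688551 in rn6, 142332 bases) and a 3′ entry (ENSRNOG00000056021, chr18:74508069-74542077, 34009 bases), both on the minus strand. In RefSeq's GRCr8 the inner start lies 34010 bases from the gene's end and the outer start 426972 bases. The 250 bases before each start are shown, since the entries part the gene into an outer and an inner stretch (RefSeq, GRCr8, minus strand, chr18:74314547-74314796 for the outer and chr18:73921585-73921834 for the inner). Neither holds TonE or its core, so no letters are in capitals, and whether the builds split the gene at the same point was not tested.
Slc14a2 outer start: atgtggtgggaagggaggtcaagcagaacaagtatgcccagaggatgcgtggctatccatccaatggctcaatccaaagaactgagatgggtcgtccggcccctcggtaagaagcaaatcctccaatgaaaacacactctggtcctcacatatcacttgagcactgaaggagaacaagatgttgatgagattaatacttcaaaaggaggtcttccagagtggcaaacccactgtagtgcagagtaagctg
Slc14a2 inner start: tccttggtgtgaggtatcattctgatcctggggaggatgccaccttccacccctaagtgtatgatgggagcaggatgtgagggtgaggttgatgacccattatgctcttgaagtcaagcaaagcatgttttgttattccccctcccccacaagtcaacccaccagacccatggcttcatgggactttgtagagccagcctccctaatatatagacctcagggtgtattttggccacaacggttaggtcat
Long transcripts also cover the 3′ entry, so its fragments cannot be told apart by promoter.

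The 3′ entry read 3.20, 0.512, 1.20 and 1.63 rescaled FPKM in saline and 2.85, 1.12, 0.623 and 1.79 in cyclosporine A kidneys. The 5′ entry read 3.19, 0.0494, 1.17 and 0.560 in saline and 3.39, 1.05, 1.07 and 2.66 in cyclosporine A kidneys. Saline replicate 2 held only 3 fragments of the 5′ entry, where the other saline libraries had 43 to 323. The log2 differences were 0.00 (SE 0.33, limma adjusted p = 0.999) for the 3′ entry and 0.55 (SE 0.41, 95% interval -0.37 to 1.47, adjusted p = 0.555) for the 5′ entry. Without saline replicate 1, the highest saline library in both, the 5′ difference was 0.91, and without saline replicate 2 it was 0.25. The 4 thin limb markers, all detected, summed to 323.4 to 449.7 in saline and 144.7 to 315.8 in cyclosporine A kidneys, and the 7 principal cell markers, all detected, to 166.4 to 244.5 and 172.7 to 314.2. The thin limb sum is nearly all *Aqp1*, a water channel also of the proximal tubule, at 368.6 ± 56.1 in saline and 231.6 ± 72.3 in cyclosporine A (n = 4 each, limma adjusted p = 0.167). *Sptssb* of the same list stood at 0.468 ± 0.301 and 1.72 ± 0.638 (limma adjusted p = 0.0772), and *Bst1* at 1.28 ± 0.298 and 1.42 ± 1.11. The part of these cell types in the *Slc14a2* values was not tested.

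Tacrolimus kidneys held the 3′ entry at 8.62 through 11.3 to 14.04 FPKM, beside 8.32 through 10.5 to 12.7 with vehicle. The 5′ entry stood at 2.54 through 3.04 to 4.09 with the drug and at 3.01 through 4.33 to 5.60 with vehicle. No tacrolimus kidney reached the vehicle median of the 5′ entry, though the ranges overlapped. Its log2 difference of -0.31 (SE 0.13, 95% interval -0.60 to -0.02) had an unadjusted p of 0.0379 and a limma adjusted p of 0.521, and that of the 3′ entry was 0.09 (SE 0.12, adjusted p = 0.906). The sums of the thin limb markers (668.3 to 843.7 with vehicle, 670.3 to 799.9 with tacrolimus) and of the inner medullary markers (283.0 to 461.3 and 299.9 to 353.9) overlapped. The 6 adipocyte markers, all detected, summed to 86.9 to 278.9 with vehicle and 49.7 to 153.6 with tacrolimus (medians 179.4 and 67.3), and 4 of 6 had an unadjusted p under 0.05, against 8.58% of all genes. *Ucp1* of that list was called lower (log2 difference -3.33, limma adjusted p = 0.000844). That call held in 12 of 12 cases with 1 library left out and was lost in the voom fit to recovered fragments (adjusted p = 0.0514). The part of other tissue in the *Slc14a2* values was not tested.

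**Figure D3:**
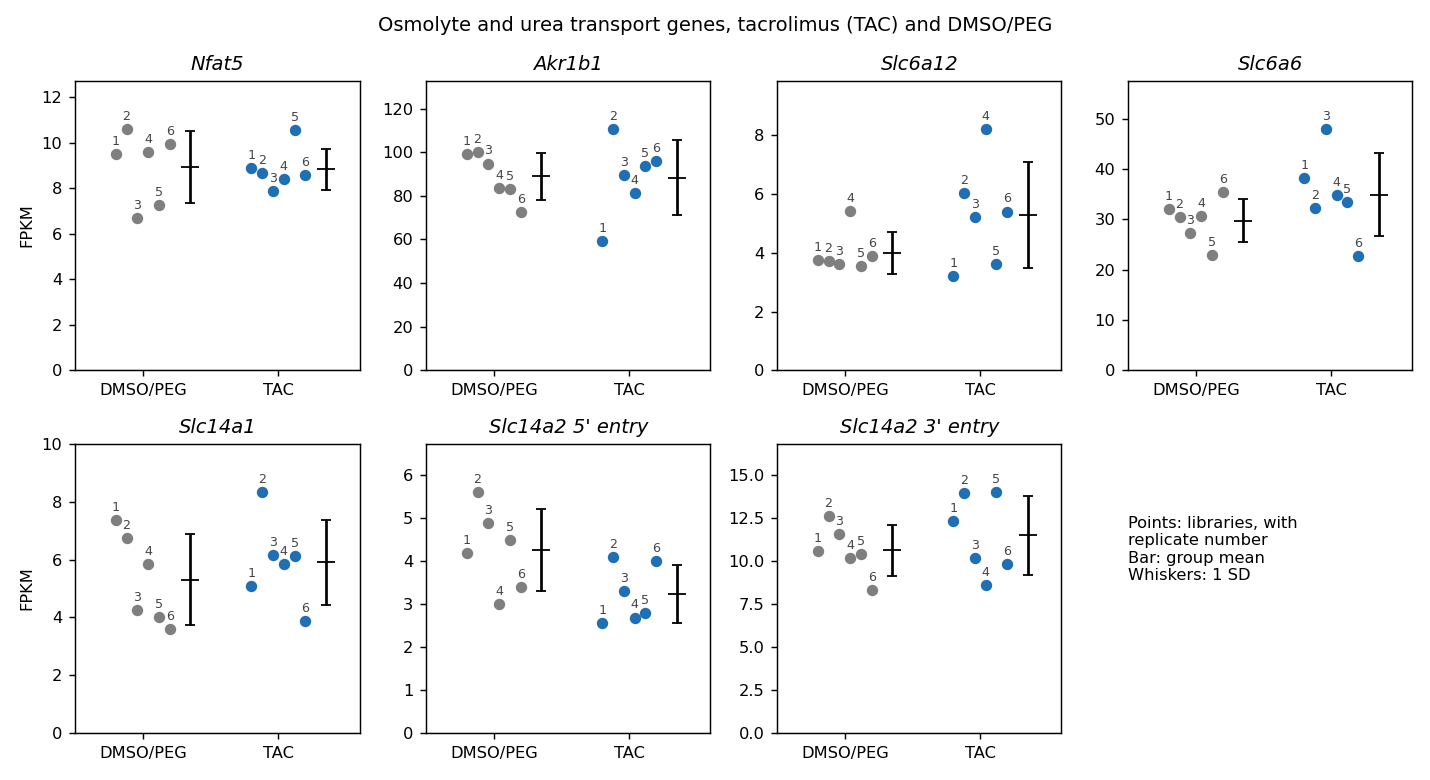
FPKM of the 7 entries (y axis, from 0) in each DMSO/PEG (grey) and tacrolimus (blue) kidney, numbered by replicate, with the mean and 1 SD in black (n = 6 per group). The groups overlap in all 7 panels, and in the *Slc14a2* 5′ panel all 6 blue points lie below the vehicle median of 4.33.

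The 3′ entry over the 5′ entry within a library is free of any scaling between libraries, and it was chosen after the values had been seen. In saline kidneys the ratio of FPKM was 1.00, 10.4, 1.03 and 2.91, the second resting on the 3 fragments named above (exact 95% binomial interval 3.39 to 51.7, counting error only). In cyclosporine A kidneys it was 0.840, 1.06, 0.584 and 0.673. The mean log2 ratio with the drug differed from that with saline by -1.62 (exact two-sided permutation p = 0.0857, where 0.0286 is the smallest 4 against 4 can give). Without saline replicate 2 it was -0.91, and over all single libraries left out it ran from -2.03 to -0.91 with an exact p of 0.0571 to 0.171.

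In DMSO/PEG kidneys the ratio ran from 2.26 to 3.39 and in tacrolimus kidneys from 2.47 to 5.05, with all 6 tacrolimus kidneys above the vehicle median. The log2 shift was 0.49 (exact two-sided permutation p = 0.0303, 0.0606 after Benjamini-Hochberg adjustment over the 2 ratio tests). Leaving out 1 library at a time gave an exact p between 0.00866 and 0.0606, at or above 0.05 in 7 of 12 cases. The deposited length of the 5′ entry was not the length counted in the cyclosporine A table, so levels of the ratio are not compared between tables, while each shift is unaffected by length.

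The shifts had opposite signs, with 0 of 4 cyclosporine A kidneys and 6 of 6 tacrolimus kidneys above the median of their own vehicle. The shift with cyclosporine A minus that with tacrolimus was -2.11 log2 units, and -1.40 without saline replicate 2, the library with 3 fragments. That difference was not tested, and the ratio was picked from values already seen.

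**Figure D4:**
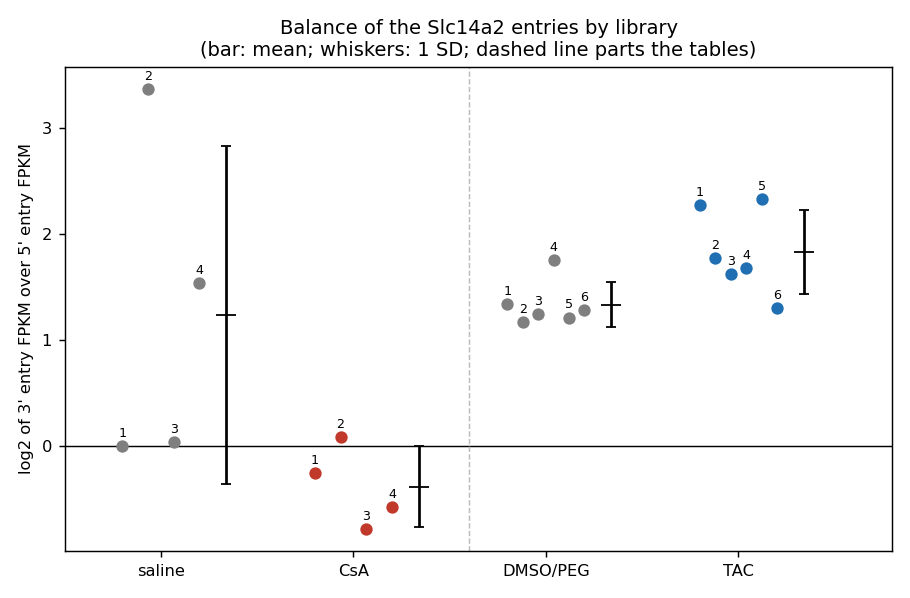
Balance of the *Slc14a2* entries: log2 of the 3′ entry's FPKM over the 5′ entry's (y axis) in each library, numbered by replicate, with means and 1 SD in black, 4 saline and 4 cyclosporine A kidneys left of the dashed line and 6 DMSO/PEG and 6 tacrolimus kidneys right of it. The cyclosporine A points reach no higher than 0.09 and the tacrolimus points no lower than 1.30, each to be read against its own vehicle.

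Below *Akr1b1* the order of levels per length is given within each table only, since the tables divide by different lengths: *Nfat5* was counted over 8746 bases in the cyclosporine A table and 13565 in the tacrolimus table. In both tacrolimus-table groups *Slc6a6* came next, at a mean of 29.75 ± 4.31 FPKM (SD, n = 6) with vehicle and 34.8 ± 8.24 with tacrolimus, its range apart from those of its neighbours. The 3′ entry of *Slc14a2* (10.6 ± 1.46) and *Nfat5* (8.93 ± 1.58) followed in the vehicle with overlapping ranges. In saline kidneys *Nfat5* (5.21 ± 1.29, n = 4) and *Slc6a6* (4.57 ± 1.63) overlapped, and the remaining 4 entries, with means of 1.24 to 2.10, overlapped from one to the next.

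The coefficient of variation of the 7 entries ran from 24.8% to 111% in saline, against 12.2% to 29.6% in DMSO/PEG kidneys, and was higher in saline for 7 of 7. With drug it ran from 14.1% to 109% for cyclosporine A and from 10.3% to 34.1% for tacrolimus, and was higher with cyclosporine A for 6 of 7. *Slc6a6* was the exception, at 14.2% with cyclosporine A and 23.7% with tacrolimus. The thinnest library had 2905823 nuclear fragments in the cyclosporine A table and 28339756 in the tacrolimus table. The *Slc6a6* values rested on 122 to 193 fragments per cyclosporine A kidney and on 2056 to 5066 per tacrolimus kidney.

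**Figure D5:**
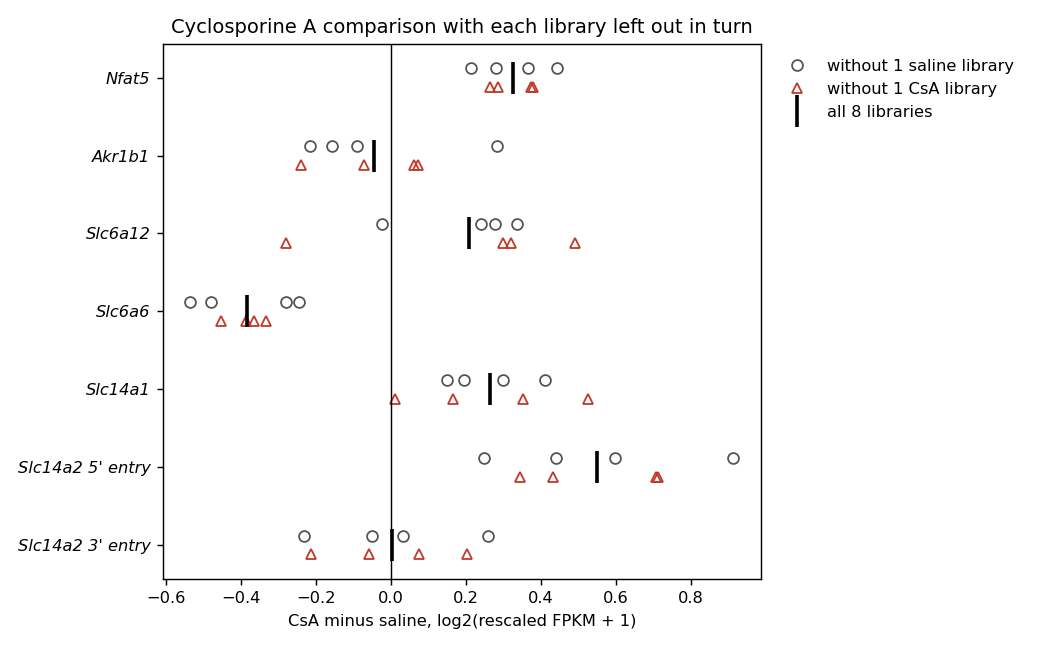
Difference between cyclosporine A and saline (x axis, log2 of rescaled FPKM + 1) for each entry with all 8 libraries (black bar) and with each saline (grey circle) or cyclosporine A (red triangle) library left out in turn. *Nfat5* stays above 0 and *Slc6a6* below 0 throughout, while *Akr1b1*, *Slc6a12* and the *Slc14a2* 3′ entry fall on both sides of 0.

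The entries varied together more in one table than in the other. Over the 8 kidneys of the cyclosporine A table the 21 pairs of entries had Pearson r from -0.09 to 0.84 (median 0.48), and over the 12 kidneys of the tacrolimus table from -0.54 to 0.62 (median 0.16). Libraries in each set share their scaling, and the r values are a description.

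For each entry the genes closest to it in pattern were sought among 9002 or 9003 genes over the 12 tacrolimus-table kidneys, by Pearson r of log2(FPKM + 1). *Nfat5* was closest to *Krit1* (r = 0.90) and *Emcn* (0.89), and *Akr1b1* to *Nudt16* (0.81) and *Cd320* (0.80). *Slc6a12* was closest to *AABR07044389.1* (0.89) and *Inppl1* (0.84), and *Slc6a6* to *Aadac* and *Tmem64* (0.88 each). *Slc14a1* was closest to *Chtopl1* and *B3glct* (0.86 each), the 3′ entry of *Slc14a2* to *AABR07054368.1* and *Ecm1* (0.88 each), and the 5′ entry to *H1f2* (0.95) and *AABR07027137.1* (0.92). Over the 8 kidneys of the cyclosporine A table the r of these pairs ran from -0.33 for *H1f2* to 0.76 for *B3glct*, with *Krit1* at 0.12 and *Emcn* at 0.01.

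Enzymes and carriers of osmolyte metabolism outside the 7 genes gave no call. Of 17 genes that make, break down or carry sorbitol, myo-inositol, betaine, taurine and glycerophosphocholine, 0 passed the limma test with either drug, and 5 with cyclosporine A (16.2% of all genes) and 2 with tacrolimus (8.58% of all genes) had an unadjusted p under 0.05. Their median log2 change with cyclosporine A was -0.24, with 3 of 17 above the median of all genes. As deposited, 16 of 17 were called lower, beside the 80.9% of all genes. *Cdo1*, which oxidises cysteine on the way to taurine, stood at 91.8 ± 6.27 rescaled FPKM in saline and 61.5 ± 11.1 in cyclosporine A kidneys (n = 4 each, limma adjusted p = 0.0884). *Gde1*, a glycerophosphodiesterase, stood at 35.9 ± 2.83 and 23.9 ± 5.04 (limma adjusted p = 0.0968). With tacrolimus the median was 0.02, and the smallest adjusted p belonged to *Chdh*, the choline dehydrogenase that makes betaine aldehyde, at 103.2 ± 13.0 FPKM with vehicle and 122.2 ± 11.6 with drug (n = 6 each, limma adjusted p = 0.409), followed by *Isyna1*, which makes inositol phosphate, at 41.0 ± 4.12 and 35.3 ± 4.41 (limma adjusted p = 0.478).

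Other NFAT5 targets and regulators gave no limma call either, 0 of 15 tested with cyclosporine A (3 at an unadjusted p under 0.05, against 16.2% of all genes) and 0 of 16 with tacrolimus (1 at an unadjusted p under 0.05, against 8.58%). As deposited, 12 of 15 were called lower with cyclosporine A, a share near the 80.9% of all genes. *Ptpn11*, a phosphatase, stood at 3.79 ± 0.214 rescaled FPKM in saline and 5.10 ± 0.242 in cyclosporine A kidneys (n = 4 each, limma adjusted p = 0.151), and *Sgk1*, a kinase induced by salt and by glucocorticoids, at 9.47 ± 0.641 and 17.7 ± 7.33 (limma adjusted p = 0.181). With tacrolimus, *Hspa4l*, an osmotic stress protein, stood at 3.31 ± 0.263 FPKM with vehicle and 2.64 ± 0.162 with drug (n = 6 each, limma adjusted p = 0.148), and *Hspa1b*, an inducible chaperone, at 2.41 ± 0.638 and 3.01 ± 0.555 (limma adjusted p = 0.664).

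Of the 4 calcineurin-regulated relatives of *Nfat5*, 0 were called by limma with either drug. An unadjusted p under 0.05 was found for 0 of them, against 16.2% of all genes with cyclosporine A and 8.58% with tacrolimus. As deposited, 2 of 4 were called lower with cyclosporine A, beside 80.9% of all genes. *Nfatc4* stood at 0.275 ± 0.0632 rescaled FPKM in saline and 0.475 ± 0.169 in cyclosporine A kidneys (n = 4 each, limma adjusted p = 0.361), and *Nfatc1* at 0.609 ± 0.184 and 0.398 ± 0.0520 (limma adjusted p = 0.400). With tacrolimus *Nfatc1* stood at 2.61 ± 0.400 FPKM with vehicle and 3.01 ± 0.360 with drug (n = 6 each, limma adjusted p = 0.686), and *Nfatc2* at 0.843 ± 0.170 and 0.746 ± 0.0646 (limma adjusted p = 0.832).

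Genes that produce urea or carry it through water channels gave 1 limma call with cyclosporine A, of 6 tested, against 0.609% of all genes. With tacrolimus 0 of 6 were called, against 0.303%. An unadjusted p under 0.05 was found for 2 with cyclosporine A, against 16.2% of all genes, and for 0 with tacrolimus, against 8.58%. *Aqp7*, a water and glycerol channel of the straight proximal tubule, fell by 0.86 on the log2 scale with cyclosporine A, from 32.3 ± 0.762 to 17.5 ± 3.16 rescaled FPKM (n = 4 each, limma adjusted p = 0.0252). Saline kidneys lay at 31.4 to 33.2 and cyclosporine A kidneys at 14.4 to 21.7, so the groups were apart, as they were for 10.9% of all genes. The other gene with an unadjusted p under 0.05 was *Asl*, argininosuccinate lyase, which was higher with the drug. It stood at 16.1 ± 2.08 rescaled FPKM in saline and 23.6 ± 5.44 in cyclosporine A kidneys (n = 4 each, limma adjusted p = 0.151). As deposited, 5 of 6 genes of the list were called lower with cyclosporine A, beside 80.9% of all genes. The *Aqp7* call held in 2 of 8 cases with 1 library left out, where the adjusted p ran from 0.0215 to 0.0929, and was lost with every gene above 0 tested (0.053) and with the replicate block (0.068). With tacrolimus, *Asl* stood at 139.0 ± 16.4 FPKM with vehicle and 157.5 ± 21.6 with drug (n = 6 each, limma adjusted p = 0.686).

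Of 11 genes of urine concentration, which run from the vasopressin receptor to the salt transport of the thick ascending limb, 1 was called by limma with cyclosporine A (0.609% of all genes) and 0 with tacrolimus. An unadjusted p under 0.05 was found for 5 with cyclosporine A, against 16.2% of all genes, and for 2 with tacrolimus, against 8.58%. As deposited, 11 of 11 were called lower with cyclosporine A, beside 80.9% of all genes. *Umod*, which encodes uromodulin of the thick ascending limb, fell by 1.36 on the log2 scale with cyclosporine A, from 323.1 ± 99.8 to 125.5 ± 37.7 rescaled FPKM (n = 4 each, limma adjusted p = 0.0491). The call held in 0 of 8 cases with 1 library left out, where the adjusted p ran from 0.0553 to 0.129, and was lost with a pseudocount of 0.1 (0.0534), with every gene above 0 tested (0.116) and with the replicate block (0.0861). The 6 thick ascending limb markers, all detected, summed to 316.7 to 573.5 in saline and 155.8 to 254.1 in cyclosporine A kidneys, most of it *Umod* itself. Their part in the other values was not tested. With tacrolimus, *Aqp4*, a water channel of the principal cell, stood at 8.13 ± 1.16 FPKM with vehicle and 5.48 ± 1.39 with drug (n = 6 each, limma adjusted p = 0.148), and *Kcnj1*, the potassium channel of the thick ascending limb, at 110.3 ± 10.8 and 96.9 ± 3.70 (limma adjusted p = 0.413). The thick ascending limb markers summed to 2272 to 2788 with vehicle and 1832 to 2788 with tacrolimus. Of these 6 markers *Egf*, the epidermal growth factor gene, was called with tacrolimus: it fell by 0.93 on the log2 scale, from 52.8 ± 4.83 to 27.4 ± 3.05 FPKM (n = 6 each, limma adjusted p = 9.54e-05), and the call held in 12 of 12 cases with 1 library left out.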

How the data were processed

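Per the labels, total RNA of whole rat kidneys was sequenced after NEBNext library preparation. Per the submitters' processing notes, reads were aligned with HISAT2 to rn6; the counting program, annotation release and strand setting are not given in the sources used here. The authors deposited FPKM per gene, in 1 table for cyclosporine A with saline and 1 for tacrolimus with DMSO/PEG. Fragments were recovered from FPKM, length and depth (whole within 0.01). All values of the tacrolimus table came out whole with the listed length, and 74.58% of the cyclosporine A table, where 4441 genes, among them 5 of the 7 entries described, had been counted over a shorter length than listed. The tacrolimus table carries median-of-ratios scaling. The cyclosporine A table is relative to all assigned fragments and was rescaled to median-of-ratios, which replaced the deposited scale after the mitochondrial shares were known.

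Genes with at least 10 fragments at the median library size in no fewer libraries than 1 group holds, and 15 in total, were tested with limma 3.58.1 (R 4.3.3, trend) on log2(FPKM + 1), adjusted over all genes, with a threshold of 0.05; changes of low genes are understated on that scale. Each drug was fitted against its own vehicle, and the difference between drugs used the 2 fits. Single ratios were tested by exact permutation (scipy 1.17.1). The code was tested on simulated data. Samples were grouped by the treatment label, and nothing says more of how they were drawn, so p-values measure the spread between these samples. The members and all lists were chosen with earlier results of these data known. Named genes are the members, list genes called (otherwise the 2 with the smallest adjusted p), and for each member the 2 genes of highest r among those with a mean of at least 5 FPKM. 1 list gene that this rule names is not reported here.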

Additional observations from a re-analysis of the deposited data

Results flagged for a closer look

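Within a group, the highest or lowest library was set against the gap that marks a lone value in groups of 4 to 6 samples, a criterion that chance meets in about 1 in 20 groups. Of the 46 groups looked at, 7 met it, and the values share libraries and scales. Entries of the cyclosporine A table were counted on both scales, so the 7 cannot be set against that rate. *Nfat5* in tacrolimus replicate 5 was 10.55 FPKM, where the other 5 ended at 8.89. *Akr1b1* in saline replicate 1 was 33.9 rescaled FPKM, with the others at 15.1 or less, and 68.3 FPKM as deposited, with the others at 23.0 or less. *Akr1b1* in cyclosporine A replicate 3 was 9.22 FPKM as deposited, below the other 3 at 10.5 to 10.7. *Slc6a12* in cyclosporine A replicate 4 was 8.50 rescaled FPKM, with the others at 1.85 or less, and in DMSO/PEG replicate 4 it was 5.41 FPKM, with the others at 3.89 or less. The *Slc14a2* log2 ratio of the 3′ to the 5′ entry was 1.76 in DMSO/PEG replicate 4, with the others at 1.34 or less. That ratio lay below the vehicle median in all 4 cyclosporine A kidneys and above it in all 6 tacrolimus kidneys, a gap of -2.11 log2 units between the shifts. The difference was not tested, and the ratio was chosen after its values were seen.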

How the results depend on the processing

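No entry was called in any setting on rescaled values. Of the values of the entries under alternatives, 341 kept their direction and side of the threshold, 45 changed sign and 6 kept their direction but newly passed, all on the deposited scale, where 12 passed in all, 6 of them with a changed sign. On that scale cyclosporine A gave 10911 calls (26 higher and 10885 lower) and 6 of 7 entries, and the difference between drugs 10068 calls and 6 entries. Signs turned there for *Nfat5* (-0.81), *Slc6a12* (-0.75), *Slc14a1* (-0.66) and the *Slc14a2* 3′ (-0.81) and 5′ (-0.24) entries, and in the difference for *Nfat5* (-0.81) and *Slc14a1* (-0.81). Relative to nuclear fragments *Akr1b1* was 0.048. Testing every gene above 0 left 1 call with cyclosporine A and 135 in the difference. The voom fit, added after seeing the data, called 269 genes with cyclosporine A, with *Slc6a12* at -0.094 and the 3′ entry at -0.22, and *Slc14a1* at -0.11 in the difference. The planned count-based tests were not run, since the tables hold FPKM. With 1 library left out, calls ran from 1 (without saline replicate 4) to 139 (without cyclosporine A replicate 4) with cyclosporine A, from 36 to 49 with tacrolimus and from 27 to 272 in the difference. Leaving out 1 library turned signs within these ranges: with cyclosporine A *Akr1b1* from -0.24 to 0.28, *Slc6a12* from -0.28 to 0.49 and the 3′ entry from -0.23 to 0.26; with tacrolimus *Nfat5* from -0.073 to 0.045 and *Akr1b1* from -0.093 to 0.084; in the difference *Akr1b1* from -0.22 to 0.31, *Slc6a12* from -0.58 to 0.20, *Slc14a1* from -0.13 to 0.38 and the 3′ entry from -0.33 to 0.16. The cause of these changes was not tested. Replicate numbers did not pair the samples (r between same-numbered samples -0.15 to 0.21 with cyclosporine A, 1 of 4 pairs over 0.1, and -0.15 to 0.18 with tacrolimus, 2 of 6), and the replicate block left 6 calls with cyclosporine A, 44 with tacrolimus, 180 in the difference and 0 entries. Depth limits the cyclosporine A comparison most for the 5′ entry, with between 3 and 323 fragments per library.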
